A study of Mus musculus with 24 samples.

Results

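The flavin-containing monooxygenases described here are Fmo1, Fmo2, Fmo4 and Fmo5, which are 4 of the 21402 named genes that had a tested probe. They were found by the gene name that the scanner files give to each probe that is not a control spot, which returned 11 probes of 56605. Of these, 9 were tested: 4 for Fmo1, 2 for Fmo2, 1 for Fmo4 and 2 for Fmo5. The other 2 probes, both named Fmo2, were dim and were not tested.

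RNA from liver samples of C57BL/6J mice was hybridised to 24 single-colour Agilent arrays, and the labels give 4 groups of 6 arrays. The group labels combine a sex (male or female) with a diet (control or pesticide). Mice of all 4 groups were labelled as 68 weeks old and were fed the control diet or the diet with the pesticide mixture for 52 weeks. The compounds of the mixture are not named in the labels, and by the series' title the dose was set at acceptable daily intakes. The labels do not tie arrays to numbered mice, so the p-values measure only the spread between these samples, which may be partly technical. Each of 3 slides held 8 arrays, 2 of each group.

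Flavin-containing monooxygenases sit in the membrane of the endoplasmic reticulum. They hold FAD, take electrons directly from NADPH and add an oxygen atom to nitrogen or sulfur atoms of amines, thioethers and other soft nucleophiles, among them drugs, food components and some pesticides. Fmo1 is a main form of mouse liver, Fmo2 is best known from lung, Fmo4 is a form of low abundance, and Fmo5 is abundant in liver and also carries out Baeyer-Villiger oxidations of ketones. In adult mice, hepatic expression of this family is known to differ between the sexes.

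The probes are 60 bases long, and the first 30 bases of those that carry the results are printed here in lower case, as given in the scanner files, with no letter singled out. They show which stretch of each transcript the values refer to, with positions on the mouse build mm9.
Fmo1 probe A_52_P508991, chr1:164760037-164760096, minus strand: gatctaactggcttttcaaatgtatggagt
Fmo1 probe A_55_P2153783, chr1:164780212-164780271, minus strand: aactcagccatctttgatgctgtcatggtc
Fmo2 probe A_51_P301998, chr1:164806827-164806886, minus strand: cttctttttccaacttcaggggttttaatc
Fmo2 probe A_52_P273891, chr1:164805530-164805589, minus strand: acattataggtaagaaaagcaaatctcagc
Fmo4 probe A_55_P2647282, chr1:164738476-164738535, minus strand: acaaatgtctgcaaagaaatgtcatgttac
Fmo5 probe A_55_P1959595, chr3:97456410-97456469, plus strand: acagaaaatagctaagttccggcatgtggc
The Fmo1, Fmo2 and Fmo4 probes thus lie in a cluster on chromosome 1, and Fmo5 lies alone on chromosome 3. Where 1 value per gene is given, it comes from the tested probe with the highest mean signal, which is A_52_P508991 for Fmo1, A_51_P301998 for Fmo2, A_55_P2647282 for Fmo4 and A_55_P1959595 for Fmo5. Whether these positions are exonic coding sequence or untranslated region was not analysed here, since no mm9 annotation was used. In the RefSeq transcripts named by the files, these probes start at base 1921 for Fmo1, 1627 for Fmo2, 206 for Fmo4 and 2484 for Fmo5.

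Transcripts of the sex chromosomes went against the labelled sex on these arrays. Xist, which is expressed from the inactive X chromosome of female cells, was well above background on 6 of 6 arrays of each labelled pesticide group and on 0 of 6 arrays of each labelled control group. The Y-linked transcripts Eif2s3y, Ddx3y, Kdm5d and Uty showed the reverse, on 6 of 6 labelled control arrays and 0 of 6 labelled pesticide arrays of each labelled sex. The labelled diet therefore coincides on every array with this split in sex-chromosome transcripts, and in every comparison of diets the 2 cannot be told apart. The labels of sex and diet may be exchanged in part, which was not tested. The labelled sex comparison is between arrays in the same state of Xist and the Y-linked transcripts. By these transcripts it is not a comparison of males with females. Each group keeps its label as its name. The array labelled female pesticide 3 also stood apart, with 39032 probes well above background against 29935 to 33393 on the other arrays. The changes of the tested Fmo probes in labelled females, and gene list counts that change without it, are given both ways.

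Between the labelled diets, Fmo2 rose 4.21-fold in the mean of both labelled sexes, Fmo1 and Fmo4 rose less and Fmo5 fell. In labelled males 7 of the 9 tested Fmo probes were higher on the pesticide diet and 2 were lower. In labelled females 5 were higher, 2 were lower and 2 did not pass. Over all 32078 tested probes, 22.2% passed in labelled males (11.6% higher and 10.7% lower) and 18.3% in labelled females (8.88% higher and 9.44% lower), at a Benjamini-Hochberg adjusted p under 0.05 in limma. In the mean of both labelled sexes all 9 tested Fmo probes passed, against 36.1% of all tested probes. Without the array labelled female pesticide 3, 8 Fmo probes passed in labelled males and 6 in labelled females. The shares over all tested probes given above belong to the fit of all 24 arrays, and that of this fit is not given. Over the 24 fits that each left out an array, 5921 to 7483 of all tested probes passed in labelled males. In labelled females 4777 to 6526 passed. All values are log2 signals after quantile normalization, and changes are labelled pesticide minus labelled control with the standard error (SE).

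**Figure D1:**
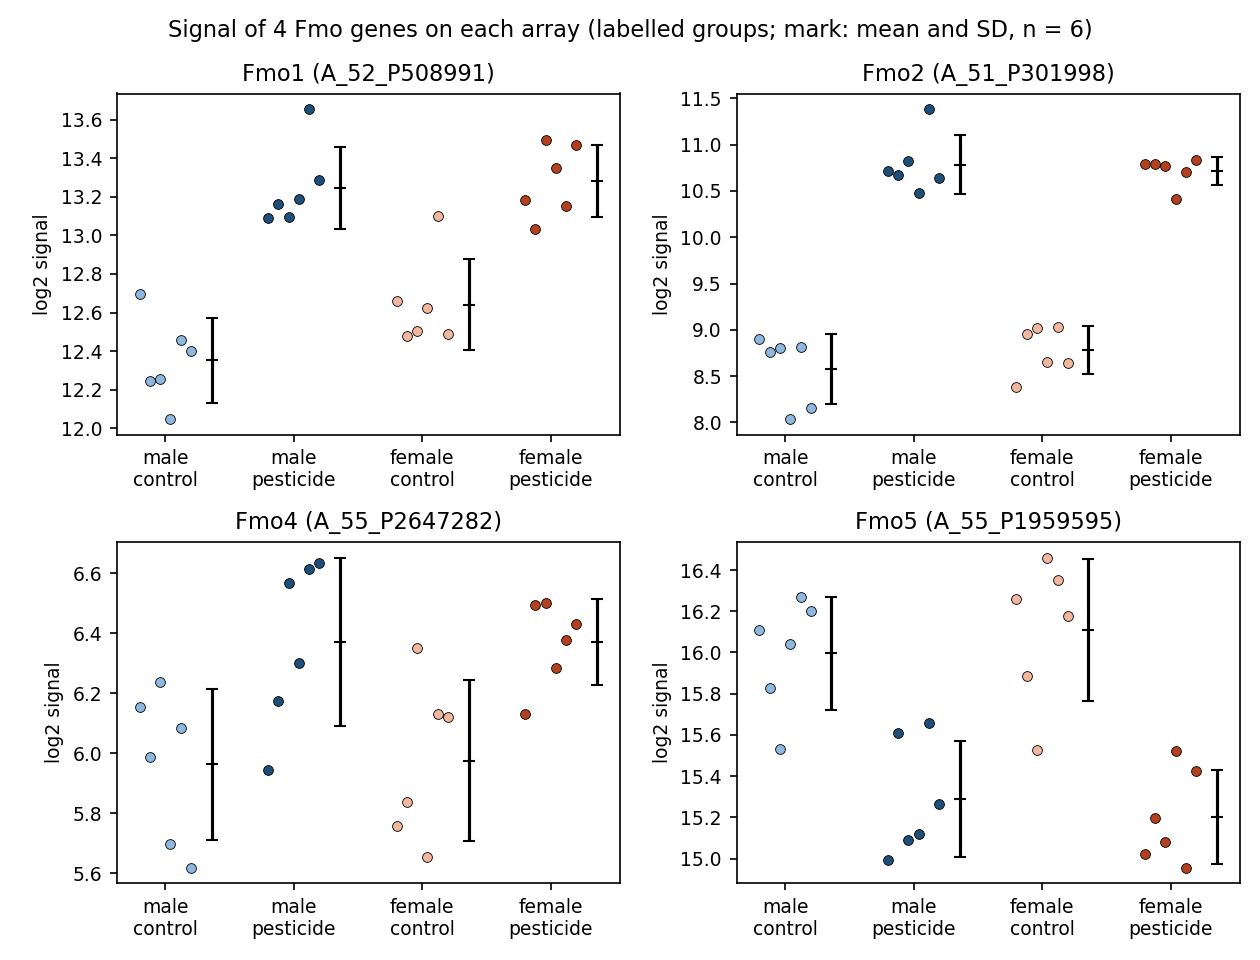
Log2 signal of the brightest tested probe of Fmo1, Fmo2, Fmo4 and Fmo5 on each of the 24 arrays, by labelled group, with the mean and SD of 6 arrays beside the points; each panel has its own axis. Fmo2 sits between 8.04 and 9.03 on the labelled control arrays and between 10.42 and 11.39 on the labelled pesticide arrays, while the groups of Fmo4 overlap and Fmo5 is lower on the labelled pesticide arrays.

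Fmo2, the form best known from lung, had the largest change of the 4 genes. In labelled male control its log2 signal had a lowest value of 8.04, a median of 8.78 and a highest value of 8.91, and in labelled female control these were 8.39, 8.81 and 9.03. On the pesticide diet they were 10.48, 10.69 and 11.39 in labelled males and 10.42, 10.78 and 10.84 in labelled females. All 12 labelled pesticide arrays were higher than all 12 labelled control arrays. The share of all tested probes without overlap between the labelled diets was not counted, here or for the other Fmo probes. The change was 2.21 ± 0.16 (SE) in labelled males, which is 4.62-fold (limma, adjusted p = 2.5e-10). In labelled females it was 1.94 ± 0.16, or 3.83-fold (adjusted p = 3.4e-09), and without the array labelled female pesticide 3 it was 1.93 (adjusted p = 2.4e-08). Of the tested probes, 0.486% had a larger absolute change in labelled males and 0.539% in labelled females. Within the 3 slides the change ran from 1.86 to 2.53 in labelled males and from 1.76 to 2.11 in labelled females.

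The other tested Fmo2 probe, A_52_P273891, lies farther along the transcript and moved by a similar amount. Its lowest, median and highest log2 signals were 6.26, 6.74 and 6.90 in labelled male control and 8.09, 8.28 and 8.99 in labelled male pesticide. In labelled females they were 6.42, 6.72 and 7.07 on the control diet and 8.27, 8.41 and 8.75 on the pesticide diet. Again no labelled control array reached a labelled pesticide array, with changes of 1.74 ± 0.14 (adjusted p = 2.8e-09) and 1.72 ± 0.14 (adjusted p = 4.7e-09), the latter 1.68 without female pesticide 3 (adjusted p = 3.4e-08). Both Fmo2 probes were well above background on 24 of 24 arrays, so the gene was measured in every labelled group and was not switched off in any.

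The 2 dim Fmo2 probes belong to other transcript models of the gene. A_52_P1138659 was well above background on 1 of 24 arrays, which was labelled male pesticide, and A_55_P2713731 on 0. Group means of A_52_P1138659 lay between 5.17 and 5.55, near the lowest signals of the array.

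The RefSeq promoter table (GRCm38.p6) held 2 start sites of Fmo2 and 1 each of Fmo4 and Fmo5. The 250 bases before the outer Fmo2 start, chr1:162898759-162899008 on the minus strand, are printed because this gene had the largest change, and capitals would mark a motif match.
Fmo2 promoter: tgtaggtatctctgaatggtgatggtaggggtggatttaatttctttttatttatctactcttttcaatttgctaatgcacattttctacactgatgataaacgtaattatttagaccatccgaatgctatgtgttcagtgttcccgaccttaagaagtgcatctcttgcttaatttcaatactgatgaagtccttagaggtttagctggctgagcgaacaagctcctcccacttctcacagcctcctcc
The motifs searched on both strands were GCGTG, the core of the site bound by the aryl hydrocarbon receptor with Arnt, and TTCNNNGAA, the palindrome bound by STAT5 and related factors. GCGTG occurs in 28.2% and TTCNNNGAA in 7.02% of all 32851 promoter windows of this length. Neither was found in the Fmo2, Fmo4 or Fmo5 windows, which says only that these letters are not in these 250 bases.

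Fmo1, a main hepatic form, rose less than Fmo2. Its brightest probe had a lowest, median and highest log2 signal of 12.05, 12.33 and 12.70 in labelled male control and 13.09, 13.18 and 13.66 in labelled male pesticide. In labelled females these were 12.48, 12.56 and 13.10 on the control diet and 13.03, 13.27 and 13.50 on the pesticide diet. The labelled male groups did not overlap, while in labelled females the highest control array, number 5, lay above the lowest pesticide array. The change was 0.90 ± 0.12 in labelled males, or 1.86-fold (adjusted p = 8.9e-06). In labelled females it was 0.64 ± 0.12, or 1.56-fold (adjusted p = 0.00065). Without the array labelled female pesticide 3 the latter was 0.60 (adjusted p = 0.0024).

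The other 3 Fmo1 probes rose by less or did not pass. A_55_P2153783, on the same RefSeq transcript nearer its 5' end, changed by 0.54 ± 0.11 in labelled males (adjusted p = 0.0015) and 0.46 ± 0.11 in labelled females (adjusted p = 0.0062), or 0.40 without female pesticide 3 (adjusted p = 0.019). A_55_P2792920, which the files place on a separate Ensembl transcript, changed by 0.35 ± 0.13 in labelled males (adjusted p = 0.048) and by 0.29 ± 0.13 in labelled females (adjusted p = 0.11). Without female pesticide 3 the latter was 0.27 (limma, adjusted p = 0.19). The call of A_55_P2792920 in labelled males was lost in 14 of the 24 fits that each left out 1 array, with adjusted p from 0.052 to 0.12. Those arrays were labelled male control 2, 4 and 5, male pesticide 1, 4, 5 and 6, female control 1 and 3, and female pesticide 1, 3, 4, 5 and 6. A_52_P408245, on a further Ensembl transcript, changed by 0.62 ± 0.18 in labelled males (adjusted p = 0.016) and 0.20 ± 0.18 in labelled females (adjusted p = 0.48). Without female pesticide 3 the latter was 0.25 (limma, adjusted p = 0.41). Labelled male pesticide 1 was the highest array of its group at 7.39, with the next at 6.62. With 1 array left out, the change in labelled males ran from 0.42 to 0.69 and passed each time (limma, adjusted p from 0.012 to 0.041). With the scanner's background-subtracted processed signal, scaled to the 75th percentile, that probe changed by 1.34 in labelled males (adjusted p = 0.0056) and 0.65 in labelled females (adjusted p = 0.18). The difference between labelled sexes in its change, 0.42 ± 0.25, did not pass (adjusted p = 1).

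**Figure D2:**
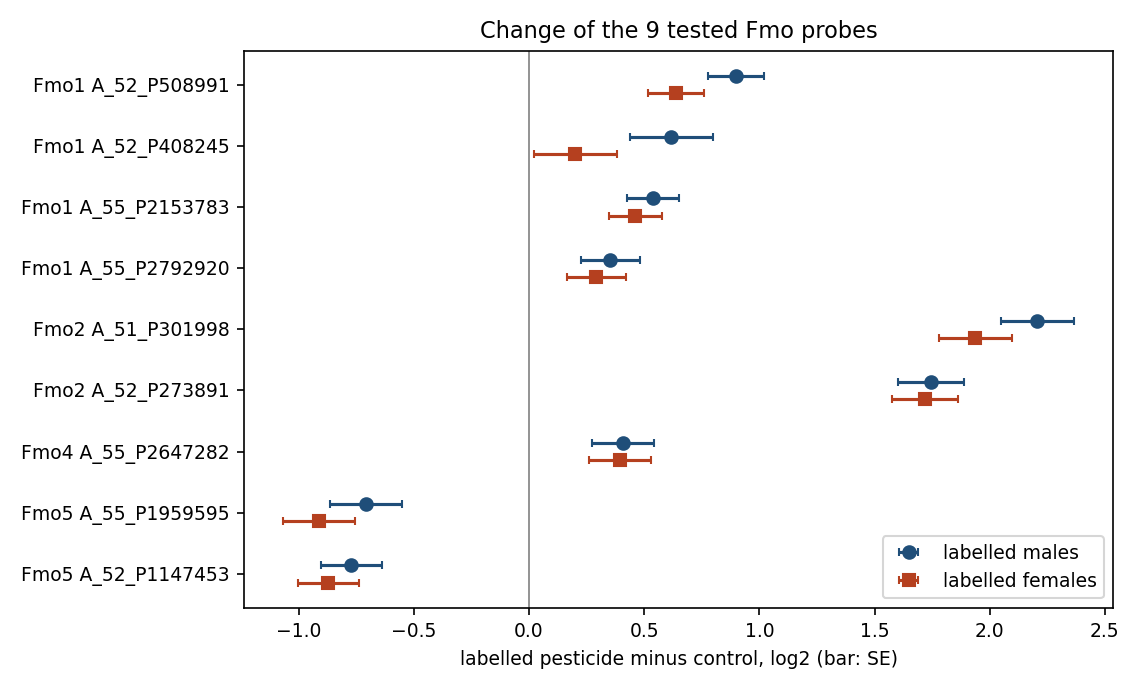
Change between labelled pesticide and labelled control groups, on the log2 scale, for the 9 tested Fmo probes; circles are labelled males, squares are labelled females and bars are the SE from limma. The 2 Fmo2 probes lie between 1.72 and 2.21, the Fmo1 and Fmo4 probes between 0.20 and 0.90, and the 2 Fmo5 probes between -0.71 and -0.91.

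Fmo4, the form of low abundance, was measured by 1 dim probe that was well above background on 21 of 24 arrays. Its lowest, median and highest log2 signals were 5.62, 6.04 and 6.24 in labelled male control and 5.95, 6.43 and 6.64 in labelled male pesticide. In labelled females they were 5.65, 5.98 and 6.35 on the control diet and 6.13, 6.41 and 6.50 on the pesticide diet. The groups overlapped in both labelled sexes. The change was 0.41 ± 0.13 in labelled males (adjusted p = 0.03) and 0.40 ± 0.13 in labelled females (adjusted p = 0.042). With 75th-percentile-scaled processed signal it was 0.89 (adjusted p = 0.025) and 0.92 (adjusted p = 0.026), more than 1.5 times as large. That setting changes the background subtraction and the scaling together, and the cause was not tested.

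The Fmo4 calls lay near the threshold. In labelled males the call was lost without labelled male control 4 or 6, or male pesticide 3, 5 or 6, with changes of 0.34 to 0.37 and adjusted p of 0.069 to 0.081. In labelled females it was lost without labelled female control 1, 2 or 4, or female pesticide 2, 3, 4, 5 or 6, with changes of 0.33 to 0.41 and adjusted p of 0.054 to 0.091. Within slides the change ran from -0.01 to 0.77 in labelled males and from 0.28 to 0.52 in labelled females.

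Fmo5, the abundant liver form, fell. Its brightest probe had a lowest, median and highest log2 signal of 15.53, 16.07 and 16.27 in labelled male control and 14.99, 15.19 and 15.66 in labelled male pesticide. In labelled females these were 15.53, 16.22 and 16.46 on the control diet and 14.96, 15.14 and 15.52 on the pesticide diet. The labelled female groups did not overlap, and in labelled males the lowest control array lay below the 2 highest pesticide arrays. The change was -0.71 ± 0.16 in labelled males (1.63-fold lower, adjusted p = 0.0022) and -0.91 ± 0.16 in labelled females (1.88-fold lower, adjusted p = 0.00023). The other Fmo5 probe, A_52_P1147453, changed by -0.77 ± 0.13 (adjusted p = 0.00019) and -0.87 ± 0.13 (adjusted p = 5.7e-05), with no overlap in either labelled sex. Without female pesticide 3 the changes in labelled females were -0.89 (adjusted p = 0.00083) for the brightest probe and -0.82 (adjusted p = 0.00025) for the other. Within slides the brightest probe changed by -0.67 to -0.77 in labelled males and by -0.69 to -1.07 in labelled females.

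The changes of the 4 genes were then compared with each other, to see how far Fmo2 stood from the less changed members. For each pair of genes the difference between their log2 signals on an array was compared between the labelled diets, by a two-sided exact permutation test over 924 splits of 12 arrays, for 12 tests in all. The smallest p this design allows is 0.00216. In labelled males Fmo2 rose by 1.31 more than Fmo1 and by 1.80 more than Fmo4 (exact permutation, adjusted p = 0.00325 for both). In labelled females it rose by 1.30 more than Fmo1 and by 1.54 more than Fmo4 (exact permutation, adjusted p = 0.00325 for both). Over the alternatives the difference of Fmo2 from Fmo4 ran from 1.41 to 1.88 in labelled males and from 1.09 to 1.66 in labelled females. The Fmo4 probe is dim, so the size of this difference depends on the processing. Fmo2 and Fmo5 moved apart by 2.91 in labelled males and 2.85 in labelled females (exact permutation, adjusted p = 0.00325 for both).

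Of the 12 differences, 11 passed. Fmo1 rose by 0.49 more than Fmo4 in labelled males (exact permutation, adjusted p = 0.0118), but with 75th-percentile-scaled processed signal this difference was -0.11 (adjusted p = 0.74). In labelled females the same difference was 0.24 (exact permutation, adjusted p = 0.175), and with normexp background correction it was 0.36 (adjusted p = 0.032). The order of Fmo1 and Fmo4 in the size of their change is thus not settled by these arrays. Without the array labelled female pesticide 3, the female differences of Fmo2 from Fmo1 and Fmo4 were 1.33 and 1.56, each with an exact permutation adjusted p of 0.0032.

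**Figure D3:**
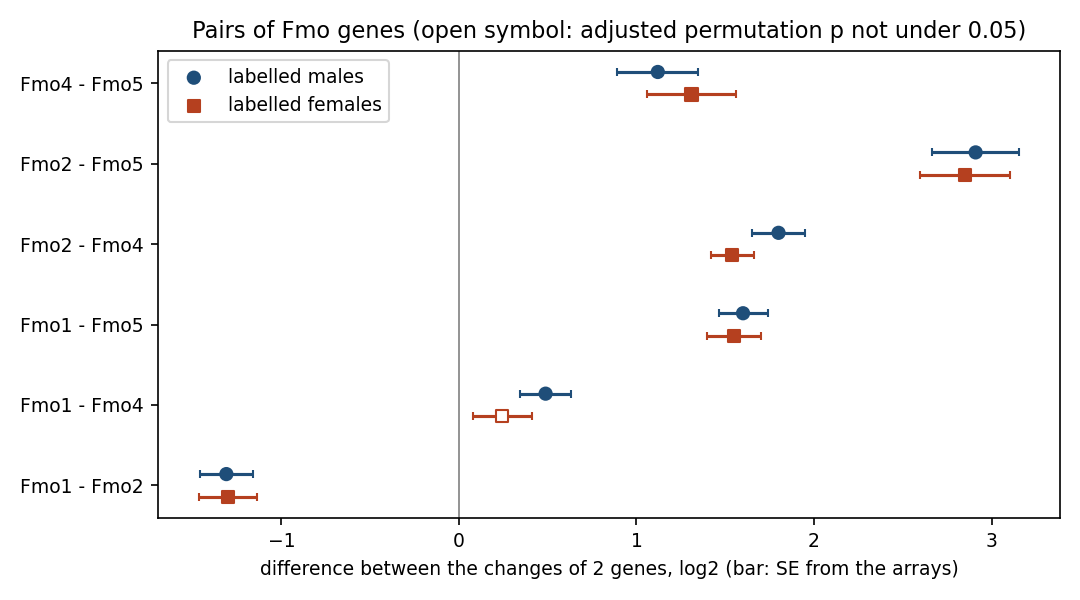
Difference between the changes of 2 Fmo genes (first minus second), on the log2 scale, from the brightest probe of each; circles are labelled males, squares are labelled females, bars are the SE from the arrays, and an open symbol marks an adjusted permutation p not under 0.05. Every filled pair lies away from 0, and the open symbol is the difference of 0.24 between Fmo1 and Fmo4 in labelled females.

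No difference between the labelled sexes passed for any of the 4 genes. By the sex-chromosome transcripts these are not comparisons of males with females. The lack of calls therefore does not show that the sexes are alike in these genes. The test of whether the diet change differed between labelled sexes passed for 0 of 9 Fmo probes and for 0 of 32078 probes, which is 0%, while 1265 probes had an unadjusted p under 0.05 in limma. For Fmo2 that difference was 0.27 with a 95% interval from -0.19 to 0.73, and for Fmo1 it was 0.26 with an interval from -0.10 to 0.61. For Fmo4 it was 0.01 (-0.38 to 0.41) and for Fmo5 0.20 (-0.25 to 0.66). Labelled male against labelled female arrays gave 0 calls among all probes, 0%, on the control diet and also 0% on the pesticide diet, with 1792 and 1311 unadjusted p under 0.05. The largest such difference of a brightest Fmo probe was that of Fmo1 on the control diet, -0.29 with an interval from -0.54 to -0.04 and an adjusted p of 0.77. Among all tested Fmo probes the largest was that of the dim Fmo1 probe A_52_P408245 on the pesticide diet. It was 0.49 with an interval from 0.12 to 0.86, and it did not pass after adjustment.

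Within the labelled groups, arrays high in Fmo2 were also high in Fmo4. After each group's mean was taken off, the deviations of the 2 genes had a Pearson r of 0.627 and a Spearman rho of 0.592 over 24 arrays (permutation within groups, p = 0.0047 and 0.0084, adjusted over 6 pairs of genes p = 0.028 and 0.025). Without the 2 arrays farthest from the median of Fmo2, r was 0.57. Fmo1 and Fmo5, which moved in opposite directions between the labelled diets, had an r of 0.519 and a rho of 0.608 within groups (permutation p = 0.019 and 0.0036, adjusted p = 0.057 and 0.022), and r was 0.412 without the 2 arrays farthest in Fmo1. Fmo2 and Fmo5 had an r of -0.124 and a rho of -0.082 (permutation p = 0.6 and 0.72, adjusted p = 0.6 and 0.72). The deviations went with the replicate number in part: all 4 arrays of number 3 lay above their group mean for both Fmo2 and Fmo4, and 0 of the 4 arrays of number 4 did. The permutation within groups treats arrays as independent of number. With number means also taken off, a choice made after seeing the data, r was 0.564 and rho 0.519 for Fmo2 and Fmo4, and 0.619 and 0.57 for Fmo1 and Fmo5. With whole numbers permuted together (exact permutation, 720 arrangements), the adjusted p was 0.05 for r and 0.046 for rho of Fmo2 and Fmo4. For Fmo1 and Fmo5 it was 0.1 and 0.046. Neither r passed here, and the r of Fmo1 and Fmo5 had not passed in the permutation within groups either. The arrays also share slides and the normalization, and the part of either was not tested.

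The probes of the same gene followed each other to different degrees within groups. The r of deviations was 0.837 between the 2 Fmo2 probes, 0.758 between the 2 Fmo5 probes and 0.747 between the 2 Fmo1 probes on the RefSeq transcript. The dim Fmo1 probe A_52_P408245 had an r of -0.085 with the brightest Fmo1 probe. It is the member probe whose signal lay closest to background among those tested, with a mean log2 signal of 5.96.

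Over 14773 candidate genes, the 3 with the highest within-group r to each member were listed as a description. For Fmo2 these were Pgd (0.752), which makes NADPH in the pentose phosphate pathway, G6pdx (0.747), the first enzyme of that pathway, and Spata25 (0.745). For Fmo4 they were Acsl5 (0.875), a long-chain acyl-CoA synthetase, Pgd (0.863) and Mgat4b (0.841). Without the 2 arrays farthest from the median of the Fmo gene, r with Pgd was 0.707 for Fmo2 and 0.81 for Fmo4. Pgd was picked as among the highest of 14773 genes and no chance level was computed, so these r are not a test. Like Fmo2 and Fmo4, Pgd, G6pdx and Acsl5 lay above their group mean on every array of number 3. On every array of number 4 they lay below it, and the part of the replicate number in these r was not tested. Pgd and G6pdx themselves did not pass between the labelled diets, with mean changes of 0.09 (adjusted p = 0.68) and 0.44 (adjusted p = 0.42). For Fmo1 the highest were Tnks1bp1 (0.792), Lamtor1 (0.788) and Hsd3b6 (0.783), and for Fmo5 Cdc42se1 (0.901), Nars2 (0.84) and Rbck1 (0.834). Fmo1 and Fmo5 had an r with Pgd of 0.245 and -0.257.

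**Figure D4:**
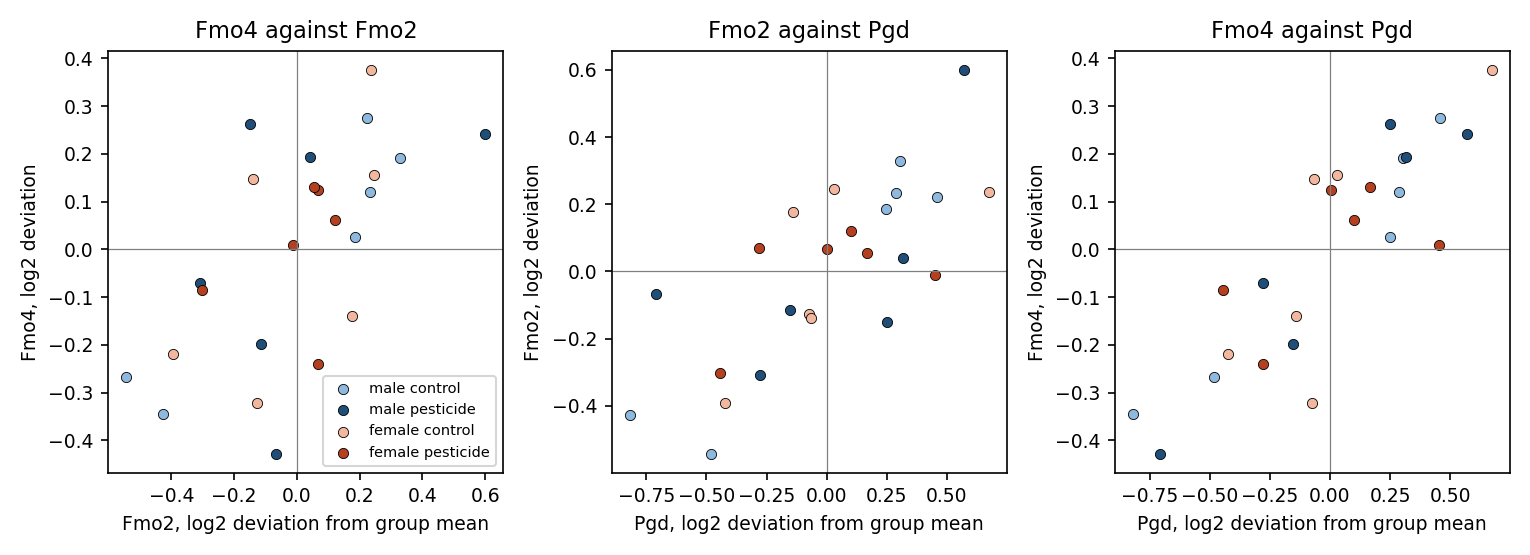
Deviation of each of the 24 arrays from the mean of its labelled group, on the log2 scale, for Fmo4 against Fmo2 (left), Fmo2 against Pgd (middle) and Fmo4 against Pgd (right); colours are the labelled groups. The points rise together in each panel, with Pearson r of 0.627, 0.752 and 0.863. Pgd was picked for its high r, so the middle and right panels are a description only.

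By the mean absolute difference between centred profiles over the 24 arrays, the genes closest to Fmo2 were Pif1 (0.23), Lratd2 (0.246) and Git2 (0.258). All of them rose in the mean of both labelled sexes. The measure includes the split by labelled diet, so a direction shared with the Fmo gene follows from how these genes were picked. Those closest to Fmo1 were Tcn2 (0.142), which carries cobalamin in blood, Ecm1 (0.151) and Sigirr (0.155). Those closest to Fmo5 were Daglb (0.171), Tcaim (0.174) and Snrpn (0.183), which fell. Those closest to Fmo4 were Pmf1 (0.126), Emcn (0.127), a marker of endothelium, and Fgfrl1 (0.129).

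The genes that supply the cofactors of these enzymes were counted next. Of 6 genes of FAD supply, 2 were higher and 0 lower in each labelled sex, with median changes of -0.01 and 0.15 against -0.03 and -0.02 over all tested probes. Rfk, the kinase that turns riboflavin into FMN, rose by 0.43 ± 0.08 (adjusted p = 0.00061) and 0.47 ± 0.08 (adjusted p = 0.00028). Enpp1, a nucleotide pyrophosphatase, rose by 0.38 ± 0.07 and 0.29 ± 0.07, while Flad1, the FAD synthase, changed by -0.21 (adjusted p = 0.092) and -0.17 (adjusted p = 0.2). Of 12 genes of NADPH supply, 2 were higher and 3 lower in labelled males, and 0 were higher and 1 lower in labelled females. Taldo1, the transaldolase of the pentose phosphate pathway, was lower, with changes of -0.33 and -0.45, and mitochondrial Idh2 rose by 0.62 ± 0.14 in labelled males (adjusted p = 0.0033), with 0.40 ± 0.14 in labelled females (adjusted p = 0.054). The list medians were 0.11 and -0.10.

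Electron transfer to cytochromes, on which flavin-containing monooxygenases do not depend, was represented by 8 genes, and 0 of them passed in either labelled sex in limma. Their median changes were 0.008 and -0.002, and Por, the cytochrome P450 reductase, changed by 0.027 ± 0.19 and 0.24 ± 0.19. In the mean of both labelled sexes, Cyb5a, cytochrome b5, passed at 0.16 (adjusted p = 0.037).

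Other oxidoreductases with flavin or molybdenum cofactors moved in both directions. Of 16 tested genes of 17 listed, 3 were higher and 4 lower in labelled males, and 2 were higher and 4 lower in labelled females, with medians of -0.025 and -0.048. Aox3, a hepatic aldehyde oxidase, was lower, with changes of -1.46 ± 0.22 in labelled males (adjusted p = 3.3e-05) and -1.47 ± 0.22 in labelled females (adjusted p = 4e-05). Hao1, the hydroxyacid oxidase of peroxisomes, was also lower, at -0.73 ± 0.09 and -0.64 ± 0.09. Maob, a monoamine oxidase, rose by 0.59 ± 0.10 and 0.50 ± 0.10, and Smox, the spermine oxidase, rose by 0.63 ± 0.11 and 0.54 ± 0.11.

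Among genes of the aryl hydrocarbon receptor pathway, 4 of 8 tested were higher and 0 lower in labelled males, and 2 were higher and 1 lower in labelled females. The receptor Ahr rose by 0.37 ± 0.13 (adjusted p = 0.048) and 0.58 ± 0.13 (adjusted p = 0.0036), and its feedback target Tiparp by 0.51 ± 0.12 and 0.48 ± 0.12. Cyp1a2, its classical hepatic target, changed by -0.36 ± 0.21 (adjusted p = 0.23) and -0.22 ± 0.21 (adjusted p = 0.5). The other 2 listed genes, Cyp1a1 and Ahrr, were not tested, and the list medians were 0.19 and 0.01.

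Of 18 liver transcription factors, 2 were higher and 2 lower in each labelled sex, with medians of -0.13 and -0.04. Cux2, a repressor that marks female mouse liver, rose by 4.36 ± 0.17 (adjusted p = 3.7e-16) and 4.58 ± 0.17 (adjusted p = 1.5e-16), in the same direction as Xist. Nr1i3, the constitutive androstane receptor, rose by 0.75 ± 0.13 and 0.74 ± 0.13, and Nr1h4, the bile acid receptor FXR, was lower, at -0.42 ± 0.08 and -0.38 ± 0.08. Foxa1, a pioneer factor of hepatic chromatin, was lower, at -0.70 and -0.69 (adjusted p = 0.029 and 0.036).

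Of 10 genes that handle choline and carnitine, food sources of some amine substrates of this family, 2 were higher and 1 lower in each labelled sex. The list medians were 0.10 and 0.07. Aldh7a1, which oxidises betaine aldehyde, was lower, at -0.60 ± 0.09 and -0.59 ± 0.09. Slc44a1, a choline transporter, rose by 0.35 ± 0.12 (adjusted p = 0.048) and 0.44 ± 0.12 (adjusted p = 0.015). In the test of a difference between labelled sexes 0 genes of these lists passed.

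Some of these counts changed without the array labelled female pesticide 3, a setting added after seeing the data for the lists. In labelled males 3 in place of 4 genes of the aryl hydrocarbon receptor pathway were higher, with Ahr at 0.37 (adjusted p = 0.053), and Cyb5a was called among the electron transfer genes at 0.23 (adjusted p = 0.045). In labelled females 0 in place of 1 gene of the receptor pathway was lower, 1 in place of 0 genes of NADPH supply was higher, which was Idh2 at 0.49 (adjusted p = 0.02), and 1 in place of 2 choline genes was higher. Foxa1 changed by -0.64 (adjusted p = 0.073), which left 1 in place of 2 transcription factors lower, and 6 in place of 8 endothelial markers were higher.

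Markers of other liver cell types moved between the labelled diets together with the Fmo genes, and in bulk tissue more cells of a type and more RNA per cell cannot be told apart. Among 10 markers of Kupffer cells and other macrophages, 9 rose in each labelled sex, with medians of 1.305 and 1.15. Vsig4, a receptor of resident macrophages, rose by 1.88 ± 0.26 and 1.65 ± 0.26. Of 10 endothelial markers, 7 and 8 were higher, with medians of 0.50 and 0.55, and of 10 stellate cell and fibroblast markers, 9 and 4 were higher. Of 10 hepatocyte markers, 0 were higher and 1 lower in labelled males and 1 higher and 0 lower in labelled females, and Alb changed by 0.0081 and 0.0162 (adjusted p = 0.92 and 0.83). Bile duct markers did not pass for 8 of 8 in either labelled sex, but in the mean of both Epcam was higher at 0.36 (adjusted p = 0.021) and Sox9 lower at -0.56 (adjusted p = 0.017). Of the remaining lists, 1 of 5 adipocyte markers was lower in each labelled sex, and of 3 lung epithelial markers 1 was lower in labelled males. None of the 2 tested kidney tubule markers passed.

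The summed signal of the macrophage markers overlapped between the labelled diets. On the log2 scale it ran from 13.80 to 15.77 in labelled male control, 13.53 to 15.82 in labelled female control, 15.18 to 15.89 in labelled male pesticide and 14.69 to 16.22 in labelled female pesticide. On 2 labelled control arrays, male control 5 and female control 4, it lay above the lowest labelled pesticide array. Marco, a scavenger receptor of macrophages and the 1 marker of the 10 that did not pass, made up 49% of the sum on male control 5 and 15% on female control 4, and its SD was 1.87 in labelled male control and 1.32 in labelled female control. Without Marco, a choice made after seeing the data, the sum ran from 13.74 to 14.80, 13.43 to 15.58, 15.13 to 15.60 and 14.64 to 16.07 in the same groups, so the labelled male groups no longer overlapped. Male control 5 at 14.80 and female control 4 at 15.58 still lay above the lowest labelled pesticide array, which was labelled female. Fmo2 on these arrays was 8.81 and 8.65, within the range of the other labelled control arrays. Fmo5 on them was 16.27 and 16.46, the highest value of their groups. Within groups, the deviations of Fmo2 had an r of 0.034 and a rho of -0.017 with those of the macrophage sum (permutation p = 0.9 and 0.94, adjusted over 12 relations p = 0.98 and 0.95). Without Marco r was 0.047 and rho 0.052. An r within groups cannot show the part of macrophages in the change between the labelled diets, which was not tested.

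The endothelial sum ran from 14.65 to 15.17 on labelled control arrays and from 15.14 to 15.63 on labelled pesticide arrays. Within groups it had an r of 0.538 with Fmo4 and -0.54 with Fmo5 (permutation p = 0.012 for both, adjusted p = 0.072 for both), with rho of 0.508 and -0.503 (permutation p = 0.019 and 0.018, adjusted p = 0.11 for both). Without the 2 arrays farthest in the Fmo gene, r was 0.491 and -0.443. The stellate sum ran from 14.75 to 15.67 on labelled control and from 15.24 to 15.64 on labelled pesticide arrays, and its r with Fmo2 was 0.444 and its rho 0.468 (permutation p = 0.048 and 0.039, adjusted p = 0.19 and 0.16), with r of 0.331 without the 2 arrays farthest in Fmo2. None of the 12 relations passed after adjustment, and the part of other cell types in the Fmo changes was not tested further.

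**Figure D5:**
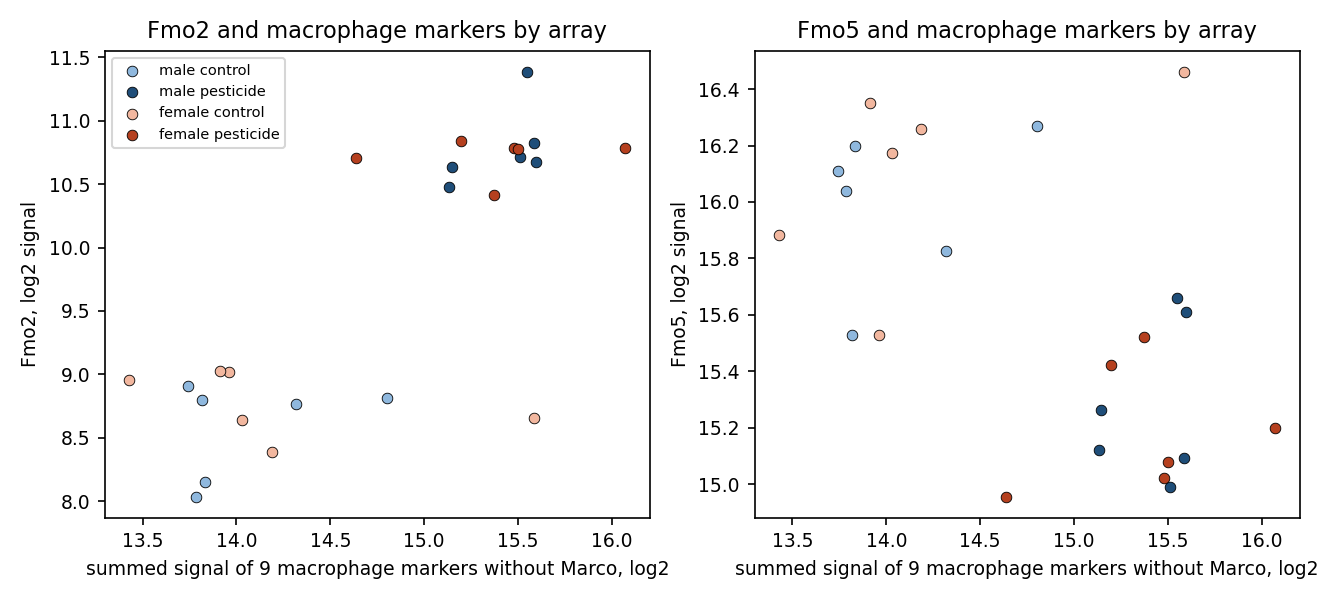
Log2 signal of Fmo2 (left) and Fmo5 (right) on each of the 24 arrays against the summed signal of 9 macrophage markers without Marco (log2), with colours for the labelled groups. The labelled control arrays at 14.80 and 15.58 on the horizontal axis have Fmo2 signals of 8.81 and 8.65, with the other labelled control arrays. The part of macrophages in the Fmo changes was not tested.

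The tested neighbours of the Fmo genes were counted as well. Within 500 kb of the chromosome 1 probes, 0 of 5 tested neighbours passed in labelled males and 1 of 5 in labelled females, Vamp4, a vesicle fusion protein, which rose by 0.22 ± 0.07 (adjusted p = 0.028). Near Fmo5 on chromosome 3, 1 of 8 was higher and 2 were lower in each labelled sex. Over all tested probes 22.2% passed in labelled males and 18.3% in labelled females. With so few neighbours the counts are a description only. Notch2, a signalling receptor, rose by 0.435 ± 0.09 and 0.36 ± 0.09. Chd1l, a chromatin remodeller, was lower, at -0.52 ± 0.11 and -0.59 ± 0.11, and Sec22b, of vesicle transport, was lower, at -0.42 ± 0.07 and -0.58 ± 0.07.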

How the data were processed

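RNA of 24 liver samples was measured on single-colour Agilent arrays of 62976 spots. The authors' deposited scanner files hold spot intensity from Agilent Feature Extraction 10.10.1.1, per the file headers and the submitters' processing notes, with probe positions on mm9. The authors' deposited log2 table holds filtered, quantile-normalized median signal, per the series' design text, and served as an alternative. From the scanner files, the log2 median intensity was taken without background subtraction, 3671 control spots and up to 9 outlier spots per array were left out, spots of a probe were averaged and 56605 probes were quantile normalized. No spot was saturated. A probe was tested if it was well above background on at least 4 of 6 arrays of 1 group, which left 32078. Signal near background compresses folds of dim probes.

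Groups were compared in limma 3.58.1 (R 4.3.3, with the data.table package) with 4 group means over 24 arrays, moderated variances and Benjamini-Hochberg adjustment over all tested probes, threshold 0.05. The script was tested on simulated data. The number of arrays limits the precision. Differences between genes used exact permutation tests, and relations within groups used 100000 permutations. A gene list counts 1 probe per gene, and up to 4 members with the smallest p in the mean of both labelled sexes were named. Por, Cyp1a2 and Alb were named for their roles after their values were seen. The genes named as alike were the 3 nearest by each measure, and neighbours lay within 500 kb. The members and lists were chosen with earlier results of these data known. Alternatives changed the background correction, scaling, filter, outlier spots, slide, replicate block, arrays in the fit, variance model, array weights and values, or left out 1 array, and a few were added after seeing the data. Some genes of the family are not reported here.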

Additional observations from a re-analysis of the deposited data

Results flagged for a closer look

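Dixon's test for a single extreme array was made in 44 groups of 6 arrays (11 Fmo probes, 4 labelled groups), and 5 passed its critical value. Chance alone passes about 1 group in 20. For the brightest Fmo1 probe, labelled female control 5 was far above its group at 13.102, and labelled male pesticide 5 was far above its group at 13.657. For the brightest Fmo2 probe, labelled female pesticide 4 was far beneath its group at 10.416, though still above every labelled control array. For the dim Fmo2 probe A_52_P1138659, labelled male control 3 was far above its group at 5.484 and labelled female control 2 at 5.662.

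That dim Fmo2 probe was not tested, because it was well above background on 1 of 24 arrays. With no filter on dim probes it changed by 0.3824 ± 0.09 in labelled males (limma, adjusted p = 0.0045) and by 0.18 ± 0.09 in labelled females (adjusted p = 0.24). The other untested Fmo2 probe, A_55_P2713731, changed by 0.198 ± 0.08 (adjusted p = 0.13) and 0.138 ± 0.08 (adjusted p = 0.36). Both lie near background, where changes are compressed.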

How the results depend on the processing

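The change of Fmo2 kept its direction and passed in both labelled sexes under every alternative, from 1.86 to 2.53 in labelled males and from 1.76 to 2.11 in labelled females. The Fmo4 call was lost in labelled males with median signal scaled to the 75th percentile (0.3514, adjusted p = 0.066), with no filter (0.4093, adjusted p = 0.052) and with only the arrays compared (0.4093, adjusted p = 0.051), and in labelled females with no filter (0.3952, adjusted p = 0.071). With 1 array left out, the Fmo4 change ran from 0.3403 to 0.4949 in labelled males and from 0.3309 to 0.4704 in labelled females, and between 0 and 1 probe passed between labelled sexes on either diet. The difference between Fmo1 and Fmo4 was 0.3645 with normexp in labelled females (adjusted p = 0.032) and -0.1087 with 75th-percentile-scaled processed signal in labelled males (adjusted p = 0.74), the reverse of the main direction. The cause was not tested.

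Each slide alone holds 2 arrays per group, so fewer calls were made. On slide 1, calls were lost for Fmo1 (0.6562 in labelled males, 0.5397 in labelled females), Fmo5 (-0.6686 and -0.9623) and Fmo4, which was reversed in labelled males (-0.0131), 0.5158 in labelled females and 0.2513 in the mean. There 1052, 1041 and 3499 probes passed (labelled males, labelled females, mean), 2, 3 and 5 of them Fmo probes, and 2 probes passed between labelled sexes on the pesticide diet. On slide 2, calls were lost for Fmo4 (0.4677, 0.3908 and 0.4292) and Fmo5 (-0.6791, -0.6942 and -0.6867), with 583, 319 and 1525 probes passing, 3, 3 and 3 of them Fmo probes. On slide 3, calls were lost for Fmo1 (1.0431 in labelled males, adjusted p = 0.09, and 0.5173 in labelled females, adjusted p = 0.35), Fmo4 (0.7734 and 0.2789) and Fmo5 (-0.7732 and -1.0735), with 459, 346 and 1792 probes passing, 3 and 2 of them Fmo probes in labelled males and females. Differences between genes moved on slide 1 in labelled males (Fmo1 minus Fmo5 1.3248, Fmo4 minus Fmo5 0.6555), on slide 2 in labelled females (Fmo1 minus Fmo2 -0.8991) and on slide 3 in labelled males (Fmo4 minus Fmo5 1.5465).

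With the replicate number as a block, 8099 probes passed in labelled males and 6751 in labelled females, 9 and 7 of them Fmo probes, and no Fmo call changed. The numbers were not taken as pairs, because the labels do not say so and not every same-numbered pair correlated above 0.1 (lowest -0.118). The arrays still had some structure by number. Among arrays of other groups, 14 of 24 arrays correlated best with an array of their own number, and the count expected by chance was not computed. The mean r of same-numbered arrays ran from 0.056 to 0.181. The strictest filter leaves out Fmo4 and 1 Fmo1 probe, so it gives no value for them. Fmo4 lies near background, which limits the precision of its change.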
